A study of Mus musculus with 18 samples.

Results

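Nos2, Irg1, Lcn2, Saa3, Sod2, C3, Ptgs2, Ptges and Cp are 9 genes whose products act in inflammation, and all of them were found by symbol among the genes of the deposited count table. Irg1 is named Acod1 in current annotation. The 9 genes were selected from measured values of these same libraries, above all from their levels in untreated cells, so the differences between untreated populations are given as descriptions without a test. All 9 were among the 13507 genes that passed the filter on low counts, but Nos2, Irg1 and Saa3 passed through the resistant populations alone, having at most 8 reads in any 4T1 library.

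RNA was sequenced from 4T1, a mouse mammary carcinoma cell line, and from 4T1R1 and 4T1R2, which are populations obtained from 4T1 by separate selection with 17-DMAG, an inhibitor of the chaperone HSP90. Without drug and after exposure to 1.5 µM 17-DMAG, every population gave 3 libraries, making 6 groups and 18 libraries of wild-type cells grown in DMEM with fetal bovine serum. The sample labels give 48 h for the treatment whereas the series description gives 2 h, and for the selection the labels give 3 rounds of 48 h at 1.5 µM whereas the series description gives cycles of 24 h at 1 µg/ml, so the time behind every 17-DMAG value is uncertain. Both resistant populations were expanded from surviving cells, and how many cells founded each is not given in the sources used here. The 4T1R1 libraries carry their own run of library names, so for a 4T1R1 value that 4T1R2 does not share, population and library series cannot be told apart.

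The products of these genes fall into several classes. Nos2 encodes the inducible nitric oxide synthase and Irg1 the enzyme that makes itaconate from cis-aconitate, and both are known from activated macrophages. Lcn2, Saa3, C3 and Cp encode secreted acute-phase proteins, which bind iron-loaded siderophores, associate with lipoproteins, drive complement activation and oxidise iron and carry copper, respectively. Ptgs2 (COX-2) and Ptges act in sequence to make prostaglandin E2, and Sod2 is the mitochondrial superoxide dismutase. NF-κB and C/EBP factors, downstream of IL-1, TNF and Toll-like receptors, are known activators of many of them, and several NF-κB activating kinases depend on HSP90.

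On GRCm38, the build of the counts, Nos2 lies at chr11:78920787-78960254 and Ptgs2 at chr1:150100031-150108227, both on the forward strand, as are Irg1 at chr14:103046977-103056573, Sod2 at chr17:13006846-13040063 and Cp at chr3:19957054-20009145. Lcn2 at chr2:32384633-32388252, Ptges at chr2:30889471-30929863, Saa3 at chr7:46711998-46715700 and C3 at chr17:57203970-57228136 lie on the reverse strand. The span of Cp overlaps Hps3 on the other strand, and as the strand setting of the counting is not given in the sources used here, reads of both genes in that overlap cannot be told apart. C3 holds Mir6978 and Ptges a processed pseudogene, Gm13400, within their spans.

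Promoter sequence was available for 8 of the 9 genes, Nos2 being the other. The stretches below are those upstream of the RefSeq transcription start (GRCm38.p6) of the 4 genes with sequence whose untreated levels differed most between 4T1 and the resistant populations. They are written 5′ to 3′ on the strand of the gene, without bases annotated as untranslated region, and run over chr2:32387798-32387989 for Lcn2, chr7:46715701-46715926 for Saa3, chr17:57228137-57228386 for C3 and chr14:103046762-103046976 for Irg1. Capitals mark matches, on either strand, to the κB-like letters GGGNNNNNCC or to the C/EBP letters TTGCNNAA.
Lcn2: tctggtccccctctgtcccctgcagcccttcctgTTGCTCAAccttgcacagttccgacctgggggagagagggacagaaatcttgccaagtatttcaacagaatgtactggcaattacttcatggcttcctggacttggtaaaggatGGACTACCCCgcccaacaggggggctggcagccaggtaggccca
Saa3: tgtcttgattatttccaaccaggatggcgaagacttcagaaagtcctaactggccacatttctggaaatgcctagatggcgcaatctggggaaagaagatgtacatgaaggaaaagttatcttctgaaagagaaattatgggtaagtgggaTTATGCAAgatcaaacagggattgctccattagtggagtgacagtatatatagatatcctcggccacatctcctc
C3: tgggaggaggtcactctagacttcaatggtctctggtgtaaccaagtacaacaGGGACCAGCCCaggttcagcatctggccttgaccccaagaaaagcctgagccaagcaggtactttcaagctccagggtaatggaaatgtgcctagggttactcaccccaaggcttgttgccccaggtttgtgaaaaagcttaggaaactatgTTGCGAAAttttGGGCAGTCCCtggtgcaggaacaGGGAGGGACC
Irg1: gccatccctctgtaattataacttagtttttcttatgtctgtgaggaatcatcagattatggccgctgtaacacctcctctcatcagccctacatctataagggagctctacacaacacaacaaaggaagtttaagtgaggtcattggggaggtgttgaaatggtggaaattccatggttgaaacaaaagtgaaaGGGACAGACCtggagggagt

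Within the 250 bases upstream of the start, GGGNNNNNCC was found for 7 of the 8 genes, all but Saa3, and it is common, being present in 45.8% of 32817 promoter windows of that length. The run of capitals farthest upstream in C3 is a pair of overlapping matches. TTGCNNAA was found for 5 of the 8 genes, namely Lcn2, Saa3, C3, Ptgs2 and Cp, and in 9.57% of all windows. For Cp, which has a pair of entries, both matches lay in the entry that starts farther downstream, in bases annotated as untranslated region of Cp. The 8 genes are counted by gene and the shares by window, so a gene with more than 1 entry has more windows to match. The heat shock letters TTCNNGAA were found for 1 gene, Saa3, and in 7.16% of all windows, and the STAT letters TTCNNNGAA for 1 gene, Sod2, and in 7.01% of all windows. The narrower κB letters GGGNNTTTCC were in none of the 8 windows and in 1.41% of all windows. These are matches of letters, not measured binding.

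The libraries held 23354461 to 55094630 counts. Among treated 4T1 libraries, replicates 1 and 2 differed less than any other replicate pair. Their mean served as 1 sample, so that group has n = 2 and the others n = 3. Epithelial markers were abundant, with Krt8 at 13753 reads or more in every library and Krt18 at 11779 or more, while the basal keratin Krt5 had 0 to 2 reads. The summed level of the epithelial markers was lower in untreated resistant cells, but not every marker fell. Of 9 tested, 7 were called lower and 1 higher than in 4T1 in untreated 4T1R1, and 6 and 2 in untreated 4T1R2. Of all genes, 27.5% and 26.9% were called lower in these comparisons, and 25.2% and 25.6% higher. In untreated 4T1, 4T1R1 and 4T1R2, Krt14 was at 143, 214 and 365 normalized counts and Cdh1 at 11139, 11244 and 13476. The 10 epithelial markers summed to 77380 to 78507 normalized counts in untreated 4T1, 51834 to 54352 in untreated 4T1R1 and 60149 to 61344 in untreated 4T1R2. Of the leukocyte markers, Tyrobp had 0 reads in all libraries, Adgre1 and Lyz2 0 to 6, Ptprc 4 to 19, S100a8 2 to 34 and Csf1r 10 to 39. In untreated 4T1, 4T1R1 and 4T1R2, Csf1r was at 10.3, 14.1 and 30.6 normalized counts, S100a8 at 2.7, 18.8 and 26.7, and Ptprc at 14.9, 5.8 and 10.2. The summed level of the 15 leukocyte markers in the table was 397 to 460 normalized counts in untreated 4T1, 768 to 895 in untreated 4T1R1 and 942 to 1013 in untreated 4T1R2, most of it from Cd14 and Cd68. The 9 hepatocyte markers together reached 11.8 normalized counts at most. Of the 8 fibroblast markers, Pdgfra had 338 to 1025 reads and Postn 0 to 34. The part of these cell types in the results was not tested. Normalized counts are read counts divided by the library size after TMM scaling and brought to a common size.

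Untreated resistant cells carried far more Nos2, Irg1, Saa3, Lcn2 and C3 mRNA than 4T1, modestly more Ptges and Cp, and Sod2 and Ptgs2 at levels that differed from 4T1 by less than 1.4-fold. These differences were among those that chose the genes. In bulk RNA, a smaller share of cells that express a gene and less RNA per cell cannot be told apart.

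**Figure D1:**
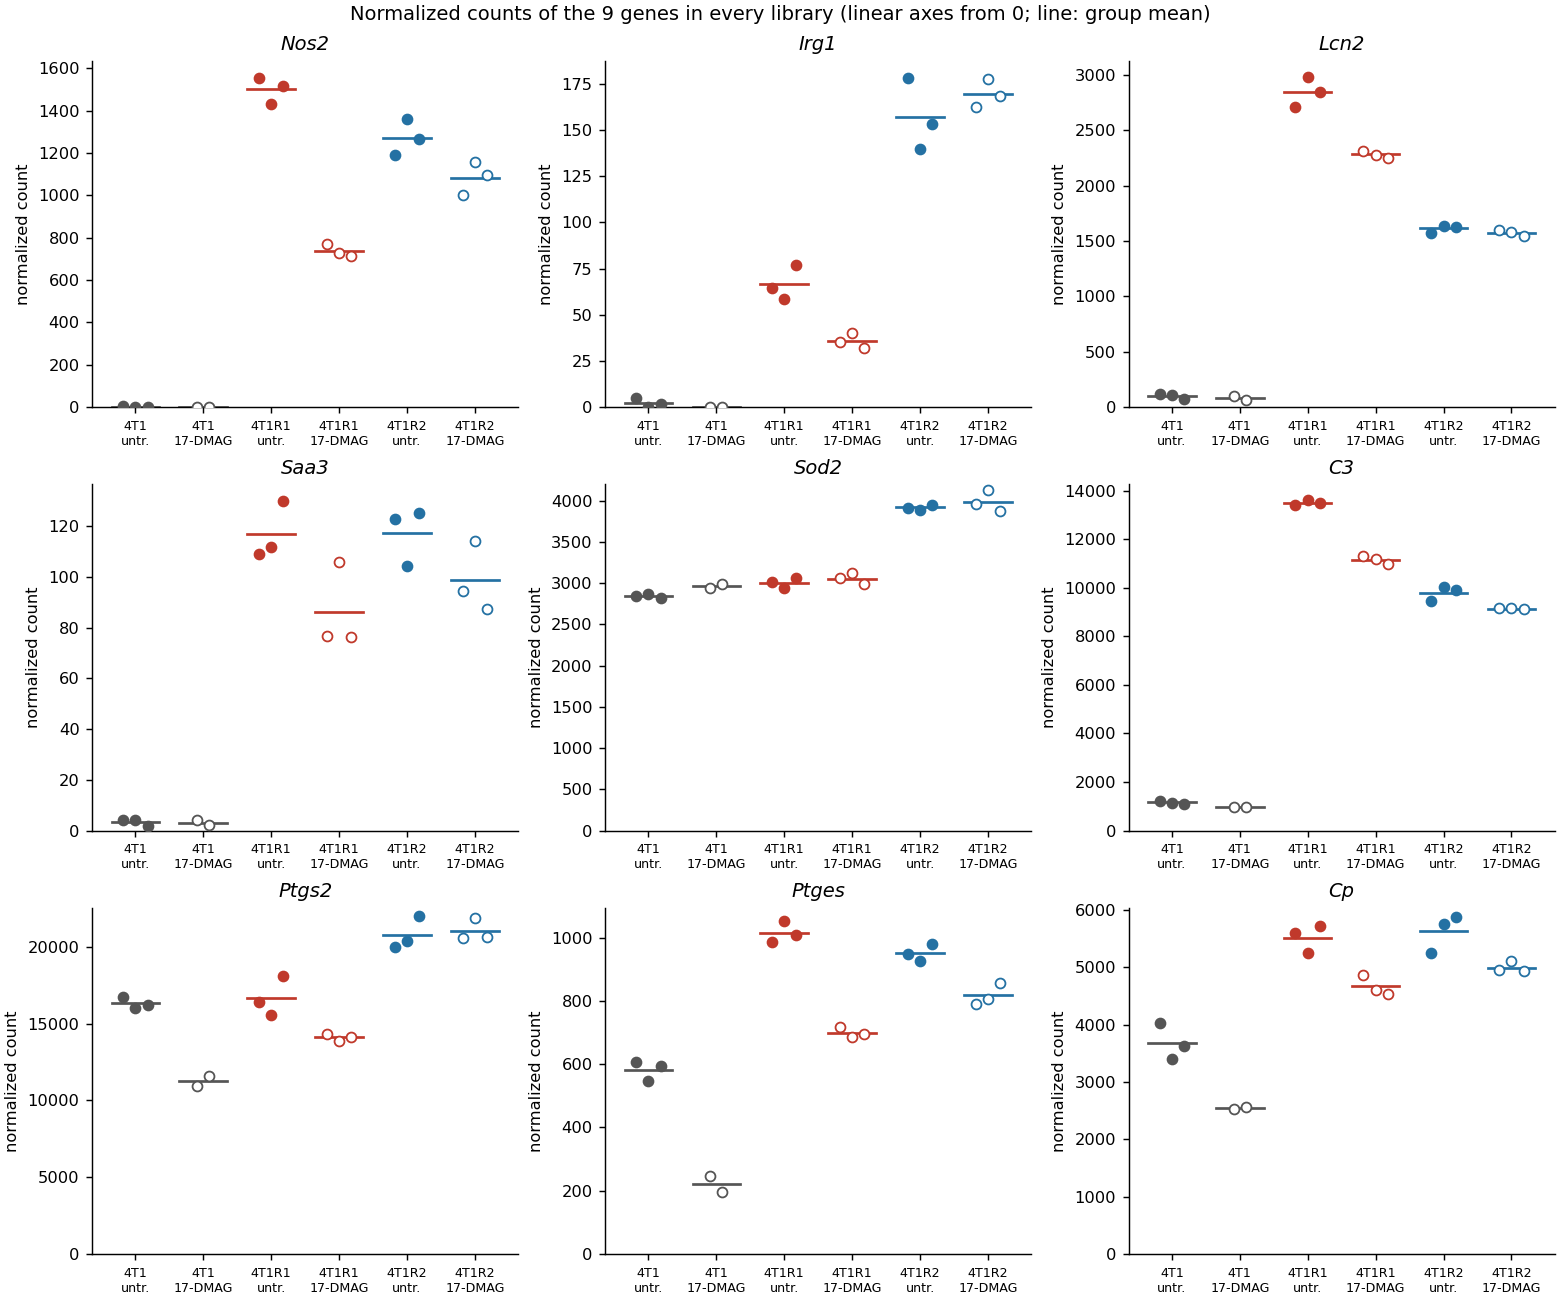
Normalized counts of the 9 genes by library, 1 panel per gene with a linear vertical axis from 0, in untreated (filled) and 17-DMAG-treated (open) 4T1, 4T1R1 and 4T1R2, with a line at each group mean. Nos2, Irg1 and Saa3 lie near 0 in all 4T1 libraries, while Sod2 and Ptgs2 are abundant in every group.

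Nos2 was almost silent in 4T1. Untreated 4T1 had 6, 0 and 0 Nos2 reads, and 17-DMAG-treated 4T1 had 0, 0 and 2. Untreated 4T1R1 had 1598, 1373 and 1634 reads, or 1502 ± 64.0 normalized counts (SD, n = 3), and untreated 4T1R2 had 1240, 1045 and 1085 reads, or 1274 ± 86.9 normalized counts (SD, n = 3). All reads of untreated 4T1 came from replicate 1, which also held 5 of the 7 Irg1 reads.

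The summed Nos2 reads, scaled to library size, were 734 times higher in 4T1R1 than in 4T1 (95% counting interval 337 to 2000) and 617 times higher in 4T1R2 (283 to 1682). These intervals, from an exact binomial method, cover counting error only. They are too narrow where both mates of a fragment were counted, and even numbers made up 65.6 to 70.8% of the gene counts from 1 to 12 in each library.

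Irg1 was low even in the resistant populations. Untreated 4T1 had 5, 0 and 2 reads, untreated 4T1R1 66, 56 and 83, and untreated 4T1R2 186, 107 and 131. On the scaled sums, Irg1 was 28.0 times higher in 4T1R1 than in 4T1 (95% counting interval 13.3 to 70.5) and 66.5 times higher in 4T1R2 (32.0 to 166). Irg1 was the gene that most separated the resistant populations, at 66.6 ± 9.54 normalized counts in untreated 4T1R1 and 157 ± 19.7 in untreated 4T1R2 (SD, n = 3), 2.36-fold higher in the latter with no overlap.

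Saa3, an acute-phase serum amyloid A made outside the liver, had 4, 4 and 2 reads in untreated 4T1. It had 112, 107 and 140 reads in untreated 4T1R1 and 128, 80 and 107 in untreated 4T1R2. The scaled sums were 34.3 times those of 4T1 in 4T1R1 (95% counting interval 18.4 to 72.2) and 34.6 times in 4T1R2 (18.6 to 72.9). The resistant populations overlapped, with 117 ± 11.4 normalized counts in each (SD, n = 3).

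Lcn2, which encodes lipocalin-2, was low but measurable in 4T1. Untreated 4T1 had 122, 109 and 74.1 normalized counts in replicates 1, 2 and 3, untreated 4T1R1 had 2706, 2979 and 2848, and untreated 4T1R2 had 1576, 1638 and 1630. The estimated log2 fold difference from 4T1 was 4.81 ± 0.0829 (standard error) in 4T1R1 and 3.99 ± 0.0873 in 4T1R2, that is 28.1-fold and 15.9-fold. The 3 populations did not overlap.

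C3, the central complement component, behaved similarly from a higher start. It stood at 1157 ± 56.7 normalized counts in untreated 4T1, 13515 ± 101 in untreated 4T1R1 and 9804 ± 300 in untreated 4T1R2 (SD, n = 3). The log2 fold difference was 3.55 ± 0.0352 (standard error) in 4T1R1 and 3.08 ± 0.0353 in 4T1R2. As for Lcn2, 4T1R1 was above 4T1R2 with no overlap, by 1.38-fold for C3 and 1.76-fold for Lcn2.

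Ptges, the inducible prostaglandin E synthase, had 607, 546 and 595 normalized counts in untreated 4T1. It had 985, 1051 and 1008 in untreated 4T1R1 and 949, 926 and 980 in untreated 4T1R2, which makes 1.74-fold and 1.63-fold. Cp, the ferroxidase ceruloplasmin, had 3682 ± 321 in untreated 4T1, 5514 ± 242 in untreated 4T1R1 and 5624 ± 333 in untreated 4T1R2 (SD, n = 3), 1.50-fold and 1.53-fold higher. The resistant populations overlapped each other for Cp and neither overlapped 4T1.

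Sod2 and Ptgs2 hardly differed between untreated 4T1 and untreated 4T1R1. Sod2 had 2847, 2862 and 2815 normalized counts in 4T1, 3009, 2944 and 3056 in 4T1R1, and 3914, 3889 and 3945 in 4T1R2. Ptgs2 had 16720, 16030 and 16210 in 4T1, 16419, 15552 and 18086 in 4T1R1, and 20018, 20396 and 21992 in 4T1R2. For both genes 4T1R2 stood above the other two populations, by 1.38-fold (Sod2) and 1.27-fold (Ptgs2) over 4T1.

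**Figure D2:**
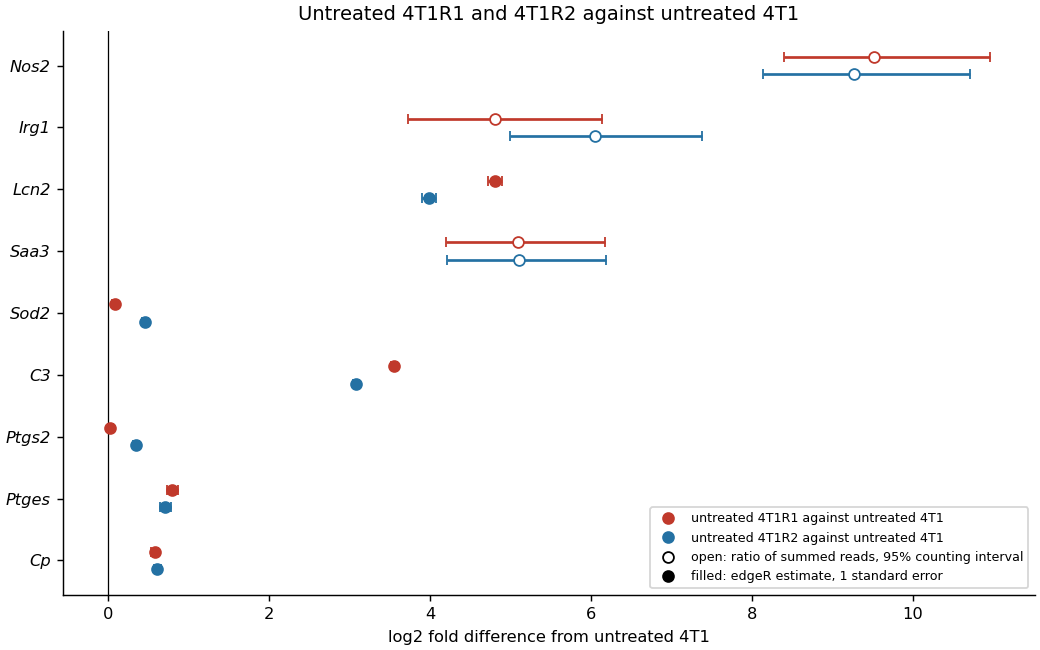
Log2 fold difference of untreated 4T1R1 (red) and 4T1R2 (blue) from untreated 4T1 for each gene. Filled points are edgeR estimates with bars of 1 standard error and open points are ratios of summed reads with 95% counting intervals, and the values run from 0.03 for Ptgs2 in 4T1R1 to a ratio of 734 for Nos2 in 4T1R1.

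Irg1, Sod2 and Ptgs2 were higher in untreated 4T1R2 than in untreated 4T1R1, and Nos2, Lcn2 and C3 were lower. The log2 differences, 4T1R2 minus 4T1R1, were 1.24 ± 0.191 (standard error) for Irg1, 0.38 ± 0.0352 for Sod2 and 0.32 ± 0.0362 for Ptgs2. They were -0.82 ± 0.0564 for Lcn2, -0.46 ± 0.0293 for C3, -0.24 ± 0.0732 for Nos2 and -0.09 ± 0.0643 for Ptges. The genes therefore did not share one order of the resistant populations.

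Per length of annotated exons, the genes spanned a wide range of levels. In untreated 4T1R1, Ptgs2 had 118 reads per kilobase of exon per 1000000 counts, C3 84.9, Lcn2 35.02, Cp 18.6 and Nos2 10.99. Sod2 had 9.69, Ptges 8.34, Saa3 1.45 and Irg1 0.820. In untreated 4T1 the same measure was 115 for Ptgs2, 7.27 for C3 and 1.25 for Lcn2, and it was 0.0152 for Nos2, 0.0293 for Irg1 and 0.0428 for Saa3. In 4T1R1 the per-length level of C3 was thus nearest to that of Ptgs2, the most abundant of the 9 in all 3 populations, while in 4T1 Cp at 12.4 was. With the longest transcript as the length, Cp in 4T1R1 came to 39.0, Lcn2 to 66.9 and Sod2 to 16.6, which places Sod2 above Nos2 at 11.6, so the order of these middle genes depends on the length used.

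**Figure D3:**
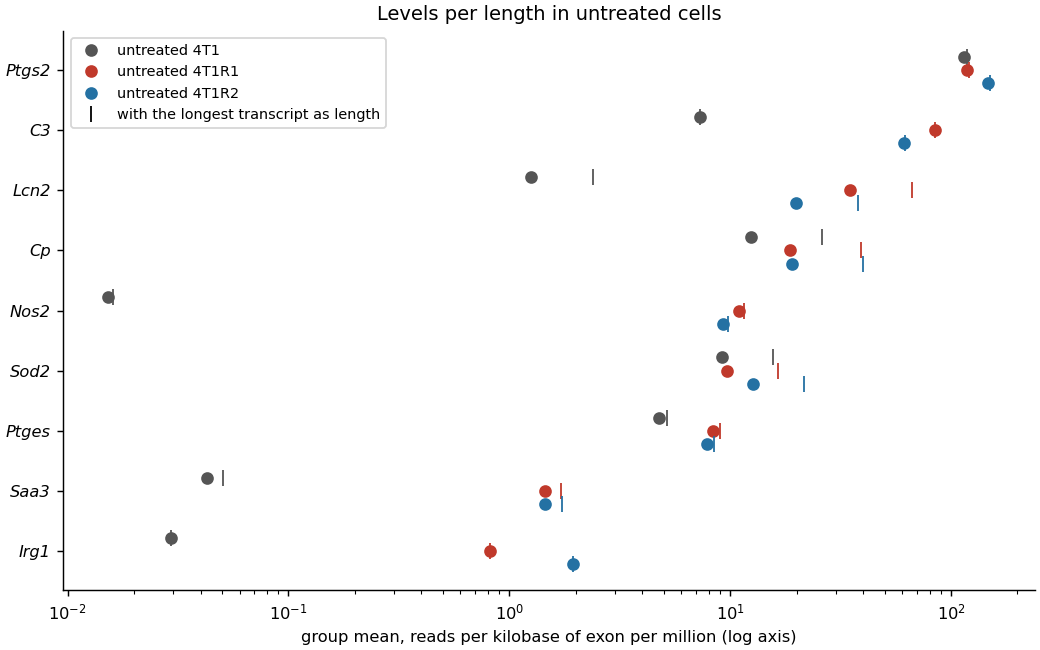
Group mean levels in untreated 4T1, 4T1R1 and 4T1R2 in reads per kilobase of annotated exon per 1000000 counts, on a log axis, with genes ordered by their level in 4T1R1. Ticks give the same level with the longest transcript as the length, which moved Lcn2, Cp and Sod2 most.

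17-DMAG lowered 7 of the 9 genes in 4T1R1 (Nos2, Irg1, Lcn2, C3, Ptgs2, Ptges and Cp), where 14.3% of all genes were called lower. In 4T1R2 it lowered 4 of 9 (Nos2, C3, Ptges and Cp), against 4.35% of all genes, a count that fell to between 0 and 3 when single libraries were left out. In 4T1, where Nos2, Irg1 and Saa3 had too few reads to be read, 4 of the other 6 genes were lowered (C3, Ptgs2, Ptges and Cp), against 17.9% of all genes. No gene of the 9 was called higher in any population with edgeR's quasi-likelihood test, and 0 were at an unadjusted p under 0.05 or were called higher by DESeq2. For these 6 genes in 4T1 the median log2 fold change was -0.39, and for the 9 genes in 4T1R1 and 4T1R2 the medians were -0.32 and -0.10, where over all genes they were 0.0006, -0.0086 and -0.0019. The fit also called Irg1 lower in 4T1 (adjusted p = 0.0376), but that call rests on 7 untreated reads against 0 treated ones with overlapping groups, and it is not counted here. The untreated libraries used to choose the genes are also the baseline of these changes. A choice by high untreated levels in resistant cells favours lower treated values there. A choice by low untreated levels in 4T1 favours higher treated values in 4T1. The counts beside the shares are therefore descriptions. The comparisons of responses below share that baseline.

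**Figure D4:**
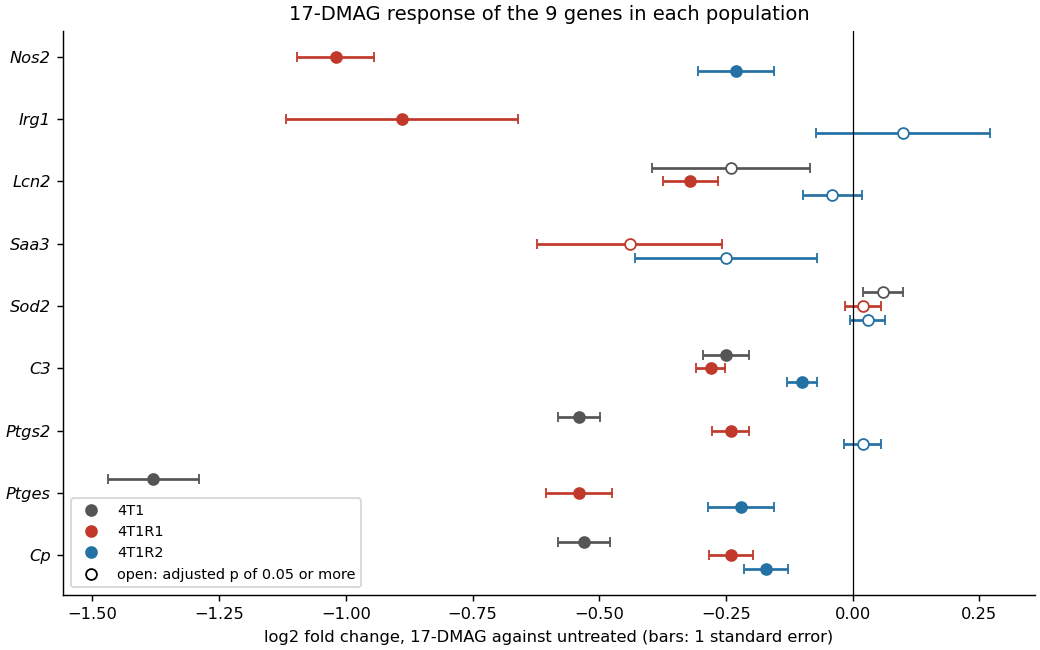
Log2 fold change after 17-DMAG for each gene in 4T1 (grey), 4T1R1 (red) and 4T1R2 (blue), with bars of 1 standard error and open points where the adjusted p was 0.05 or more. Nos2, Irg1 and Saa3 are not drawn for 4T1, Ptges in 4T1 has the most negative value at -1.38, and Sod2 stays near 0 in all 3 populations.

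Nos2 was lowered most in 4T1R1. Its normalized counts went from 1557, 1432 and 1517 to 771, 730 and 716, a log2 fold change of -1.02 ± 0.0763 (standard error, adjusted p = 7.95e-14). In 4T1R2 they went from 1189, 1363 and 1269 to 1002, 1156 and 1095, a log2 fold change of -0.23 ± 0.0744 (adjusted p = 0.0399). Neither pair of groups overlapped, and the changes differed by 0.79 ± 0.107 on the log2 scale (adjusted p = 3.32e-06). After 17-DMAG the order of the resistant populations was reversed, with 739 ± 28.5 in 4T1R1 and 1084 ± 77.9 in 4T1R2 (SD, n = 3), and both remained far above the 0 to 2 reads of treated 4T1.

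Irg1 moved much as Nos2 did in 4T1R1. It went from 64.3, 58.4 and 77.1 normalized counts to 35.5, 40.2 and 32.1, a log2 fold change of -0.89 ± 0.229 (adjusted p = 0.0028), without overlap. In 4T1R2 it went from 157 ± 19.7 to 169 ± 7.69 (SD, n = 3), a log2 fold change of 0.10 with a 95% interval of -0.24 to 0.44 and overlapping groups. The difference of these changes was 0.99 ± 0.287 (adjusted p = 0.0577).

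Of the secreted proteins, Lcn2 and C3 fell slightly in 4T1R1. Lcn2 went from 2844 ± 136 to 2282 ± 27.7 normalized counts (SD, n = 3), a log2 fold change of -0.32 ± 0.0545 (adjusted p = 1.77e-05), and C3 from 13515 ± 101 to 11155 ± 182, a log2 fold change of -0.28 ± 0.0291 (adjusted p = 8.94e-10). In 4T1R2, C3 went from 9804 ± 300 to 9142 ± 26.9 (log2 fold change -0.10 ± 0.0295, adjusted p = 0.0208), and Lcn2 from 1615 ± 33.9 to 1574 ± 30.8, with overlapping groups (95% interval of the log2 fold change -0.15 to 0.08). In 4T1, C3 went from 1216, 1152 and 1103 to 980 and 970 (log2 fold change -0.25 ± 0.0458, adjusted p = 2.95e-05). Lcn2 in 4T1, at 102 ± 24.9 untreated (SD, n = 3) and 99.8 and 68.1 treated, had overlapping groups and an adjusted p of 0.257, and without untreated replicate 3 its log2 fold change of -0.43 passed.

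Saa3 did not pass the threshold in either resistant population. In 4T1R1 it went from 109, 112 and 130 normalized counts to 76.7, 106 and 76.4, which do not overlap (log2 fold change -0.44 ± 0.182, adjusted p = 0.0669). In 4T1R2 it went from 122.8, 104 and 125 to 94.5, 114 and 87.5 (log2 fold change -0.25 ± 0.179, adjusted p = 0.433). Leaving out treated 4T1R1 replicate 2 gave a log2 fold change of -0.61 that passed.

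The prostaglandin genes had their largest changes in 4T1. Ptges went from 607, 546 and 595 normalized counts to 247 and 197, a log2 fold change of -1.38 ± 0.0901 (adjusted p = 2.69e-16), which is a decrease of 61.6% and left the groups well apart. In 4T1R1 it went from 1015 ± 33.6 to 700 ± 15.1 (SD, n = 3; log2 fold change -0.54 ± 0.0656, adjusted p = 3.14e-08). In 4T1R2 it went from 952 ± 27.2 to 817 ± 34.0 (log2 fold change -0.22 ± 0.065, adjusted p = 0.0214). The treated resistant groups thus held more Ptges than untreated 4T1.

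Ptgs2 in 4T1 went from 16320 ± 358 (SD, n = 3) to 10965 and 11566 normalized counts, a log2 fold change of -0.54 ± 0.0415 (adjusted p = 4.7e-14). It went from 16686 ± 1288 to 14100 ± 201 in 4T1R1 (log2 fold change -0.24 ± 0.0365, adjusted p = 1.74e-06). In 4T1R2 it had 20802 ± 1048 untreated and 21024 ± 717 treated, with overlapping groups and a 95% interval of the log2 fold change of -0.06 to 0.09. Untreated 4T1 and 4T1R1 overlapped for Ptgs2 and the treated groups did not, at 10965 and 11566 in 4T1 and 13899 to 14302 in 4T1R1.

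Cp fell in all 3 populations. It went from 4029, 3395 and 3621 normalized counts to 2531 and 2559 in 4T1 (log2 fold change -0.53 ± 0.0519, adjusted p = 3.13e-11), from 5587, 5244 and 5712 to 4858, 4609 and 4539 in 4T1R1 (log2 fold change -0.24 ± 0.0435, adjusted p = 4.13e-05), and from 5244, 5760 and 5867 to 4943, 5104 and 4929 in 4T1R2 (log2 fold change -0.17 ± 0.0434, adjusted p = 0.00687). Sod2 did not pass the threshold in any population. Its log2 fold change was 0.06 in 4T1 (95% interval -0.02 to 0.14), 0.02 in 4T1R1 (-0.05 to 0.09) and 0.03 in 4T1R2 (-0.04 to 0.09).

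The changes of Ptgs2, Ptges and Cp were smaller in the resistant populations than in 4T1. In the comparison of 4T1R1 with 4T1, the log2 changes differed by 0.29 ± 0.0549 for Ptgs2 (adjusted p = 0.000112), 0.84 ± 0.112 for Ptges (adjusted p = 2.67e-07) and 0.29 ± 0.0676 for Cp (adjusted p = 0.0014), making 3 of 9 against 9.16% of all genes. In the comparison of 4T1R2 with 4T1 they differed by 0.55 ± 0.0548 for Ptgs2, 1.16 ± 0.112 for Ptges and 0.36 ± 0.0675 for Cp (adjusted p = 2.1e-10, 8.81e-11 and 8.27e-05), also 3 of 9, against 9.62% of all genes. Both comparisons use the same 4T1 libraries. For C3 the 4T1R2 difference was 0.15 ± 0.0544 (adjusted p = 0.058).

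Between the resistant populations, 4 of 9 genes responded less negatively in 4T1R2 than in 4T1R1, against 1.21% of all genes. These were Nos2, given above, and Ptgs2 with 0.26 ± 0.0513 (adjusted p = 0.00207), C3 with 0.18 ± 0.0414 (adjusted p = 0.0126) and Lcn2 with 0.28 ± 0.0796 (adjusted p = 0.0486). Ptges missed the threshold at 0.32 ± 0.0924 (adjusted p = 0.0621). Without treated 4T1R1 replicate 3, or without untreated 4T1R2 replicate 1, 2 of the 4 calls were made (C3 and Lcn2 were lost), and Lcn2 was lost whichever library was left out except untreated 4T1R1 replicate 1.

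The 4 calls in 4T1R2 rest on small changes and on single libraries. With 1 library left out, 0 were made without untreated replicate 3, 1 without untreated replicate 2 or treated replicate 1, and 2 without treated replicate 2 or treated replicate 3. Without untreated replicate 1, 3 were made.

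Of all genes tested, 25.2% were called higher and 27.5% lower in untreated 4T1R1 than in 4T1, 25.6% and 26.9% in untreated 4T1R2 than in 4T1, and 19.7% and 19% in untreated 4T1R2 than in 4T1R1. After 17-DMAG, 18.4% were higher and 17.9% lower in 4T1, 13.9% and 14.3% in 4T1R1, and 6.18% and 4.35% in 4T1R2. The related gene lists were chosen with earlier results of these data known, so their counts stand beside these shares as a description only.

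Regulators of these genes were a list of 24, mainly of transcription but also of mRNA decay (Zc3h12a and Zfp36), and 23 were tested. In untreated 4T1R1 19 were higher than in 4T1 and 1 was lower, and in untreated 4T1R2 16 and 1, with medians of 0.65 and 0.44 on the log2 scale beside all-gene medians of 0.0075 and 0.0068. Ehf, an epithelial ETS factor, had 0 reads in every 4T1 library and 1421 ± 30.7 normalized counts in untreated 4T1R1 and 1807 ± 181 in untreated 4T1R2 (SD, n = 3), at least 462-fold and 588-fold higher against a floor of 3 reads per library. Zc3h12a, the RNase Regnase-1 that degrades inflammatory transcripts, was at 249 in 4T1 and 1954 and 1759 in the resistant populations, and Cebpd, a C/EBP factor, at 55.2, 291 and 255. Irf8, an interferon regulatory factor, was the regulator that was lower, at 801 in 4T1, 369 in 4T1R1 and 248 in 4T1R2.

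After 17-DMAG the same list had 13 genes lower (56.5%) and 5 higher (21.7%) in 4T1, 17 (73.9%) and 2 (8.7%) in 4T1R1, and 9 (39.1%) and 2 (8.7%) in 4T1R2, so the share higher in 4T1 is near that of all genes. The medians were -0.29, -0.31 and -0.15. In 4T1 the NF-κB inhibitor Nfkbia went from 1216 to 283 normalized counts (log2 fold change -2.10 ± 0.0672, adjusted p = 7.16e-27) and the NF-κB subunit Relb from 512 to 177 (-1.53 ± 0.107, adjusted p = 2.72e-15), while Cebpb went from 1533 to 2442 (0.67 ± 0.0593, adjusted p = 2.44e-12). In 4T1R1 Zc3h12a changed by -1.07 ± 0.0616 and Ehf by -0.89 ± 0.0645 on the log2 scale, near the change of Nos2 and Irg1 there. In 4T1R2 Zc3h12a and Ehf changed by -0.40 ± 0.0599 and -0.41 ± 0.0604, while Nos2 changed by -0.23 and Irg1 by 0.10. A link between these changes was not tested.

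Cytokine inputs and receptors, a list of 26 with 23 tested, were also mostly higher in untreated resistant cells, with 17 higher in 4T1R1, and 16 higher and 1 lower in 4T1R2. Il1a, which encodes the cytokine IL-1α, stood at 10.5 normalized counts in untreated 4T1, 159 in 4T1R1 and 298 in 4T1R2, an order that Irg1 shared. Tlr2, a receptor for bacterial lipoproteins, was at 258, 595 and 633, and Ifnar2, an interferon receptor chain, at 670, 1456 and 1338. 17-DMAG lowered 11 of the 23 in 4T1, 10 in 4T1R1 and 4 in 4T1R2, among them Lif, an IL-6 family cytokine, from 1713 to 826 in 4T1 and from 3309 to 2133 in 4T1R1.

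Of 28 other acute-phase genes listed, 7 passed the filter on low counts. Of these 7, 5 were higher than in 4T1 in each untreated resistant population. The metallothionein Mt2 was at 609 normalized counts in 4T1, 1487 in 4T1R1 and 1351 in 4T1R2, and Cd14, a lipopolysaccharide co-receptor that is also on the leukocyte list, at 243, 581 and 704. Serpina3g, a protease inhibitor from a cluster of similar copies that could share reads, was at 2.77, 143 and 10.6. After 17-DMAG, Cd14 fell in 4T1 (log2 fold change -0.51 ± 0.111, adjusted p = 0.000294), 4T1R1 (-0.43 ± 0.0796, adjusted p = 5.79e-05) and 4T1R2 (-0.27 ± 0.0761, adjusted p = 0.0151), while Mt2 rose in 4T1 (0.68 ± 0.075) and fell in 4T1R1 (-0.19 ± 0.0611).

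Complement genes, 20 tested of 36 listed, had 9 higher and 3 lower in untreated 4T1R1, and 6 and 3 in untreated 4T1R2. C1s1 and C1ra, proteases of the classical pathway, followed the order of C3 and Lcn2, with C1s1 at 48.2 normalized counts in 4T1, 519 in 4T1R1 and 266 in 4T1R2, and C1ra at 42.0, 349 and 153. Cfb, of the alternative pathway, was at 109, 274 and 157. Among the genes that were lower, Masp1 was at 445 in 4T1, 203 in 4T1R1 and 147 in 4T1R2, and Clu at 1828, 1301 and 1454. Whereas C3 fell after 17-DMAG, Clu, a secreted chaperone that also inhibits complement, rose by 0.54 ± 0.0505 in 4T1, 0.36 ± 0.0487 in 4T1R1 and 0.32 ± 0.0481 in 4T1R2 on the log2 scale (adjusted p = 9.05e-12, 2.55e-07 and 6.63e-06).

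Genes of the pathways of Nos2 and Irg1 differed in both directions. Of 21 tested genes of nitric oxide and arginine metabolism, 8 were higher and 7 lower in untreated 4T1R1, and 8 and 8 in 4T1R2. Gch1, which starts synthesis of the synthase cofactor tetrahydrobiopterin, was at 93.6 normalized counts in 4T1, 154 in 4T1R1 and 191 in 4T1R2, and Arg2, a mitochondrial arginase that competes for arginine, at 124, 184 and 219. Of 17 genes of itaconate and succinate metabolism, 2 were higher and 8 lower in 4T1R1 and 6 and 4 in 4T1R2. 17-DMAG raised Slc7a1, a transporter of arginine, in 4T1 from 7507 to 14283 (log2 fold change 0.93 ± 0.03, adjusted p = 1.15e-26).

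In the prostaglandin pathway, 7 of 20 tested genes were higher and 3 lower in untreated 4T1R1, and 6 and 5 in 4T1R2, the latter pair near the shares of all genes. Ptgs1, the constitutive cyclooxygenase, was at 2747 normalized counts in 4T1, 6111 in 4T1R1 and 7092 in 4T1R2, a larger difference than that of Ptgs2. Ptges3, the HSP90 co-chaperone p23 that also carries prostaglandin E synthase activity, rose after 17-DMAG where Ptges fell, by 0.45 ± 0.0442 in 4T1, 0.54 ± 0.0405 in 4T1R1 and 0.27 ± 0.0403 in 4T1R2 on the log2 scale (adjusted p = 5.18e-11, 8.65e-14 and 4.31e-06).

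Around Sod2, superoxide and peroxide detoxification genes had 6 of 22 tested higher (27.3%) and 7 lower (31.8%) in untreated 4T1R1, near the shares of all genes, and 10 (45.5%) and 6 (27.3%) in untreated 4T1R2. After 17-DMAG, 4 were higher (18.2%) and 3 lower (13.6%) in 4T1, near the 18.4% and 17.9% of all genes. In 4T1R1 1 was higher (4.5%) and 7 were lower (31.8%), against 13.9% and 14.3% of all genes. In 4T1R2 0 were called in either direction by edgeR, with 1 in each direction at an unadjusted p under 0.05 and 1 called lower by DESeq2. Txnrd1, a thioredoxin reductase, rose from 7789 to 10762 normalized counts in 4T1 (log2 fold change 0.47 ± 0.0331, adjusted p = 3.56e-15).

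Iron handling genes, with which Lcn2 and Cp are linked, had 7 of 14 tested higher and 2 lower in untreated 4T1R1, and 10 and 3 in untreated 4T1R2. Ltf, which encodes the iron-binding lactoferrin, was at 6.10 normalized counts in 4T1 and 104 in 4T1R2. The rule for naming genes, given below, did not select it for 4T1R1 against 4T1 or for 4T1R2 against 4T1R1. A difference of Ltf between the resistant populations is therefore not claimed. Hmox1, the heme oxygenase, was at 388 in 4T1, 590 in 4T1R1 and 677 in 4T1R2, and 17-DMAG raised it in 4T1 to 937 (log2 fold change 1.27 ± 0.0834, adjusted p = 3.17e-16).

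**Figure D5:**
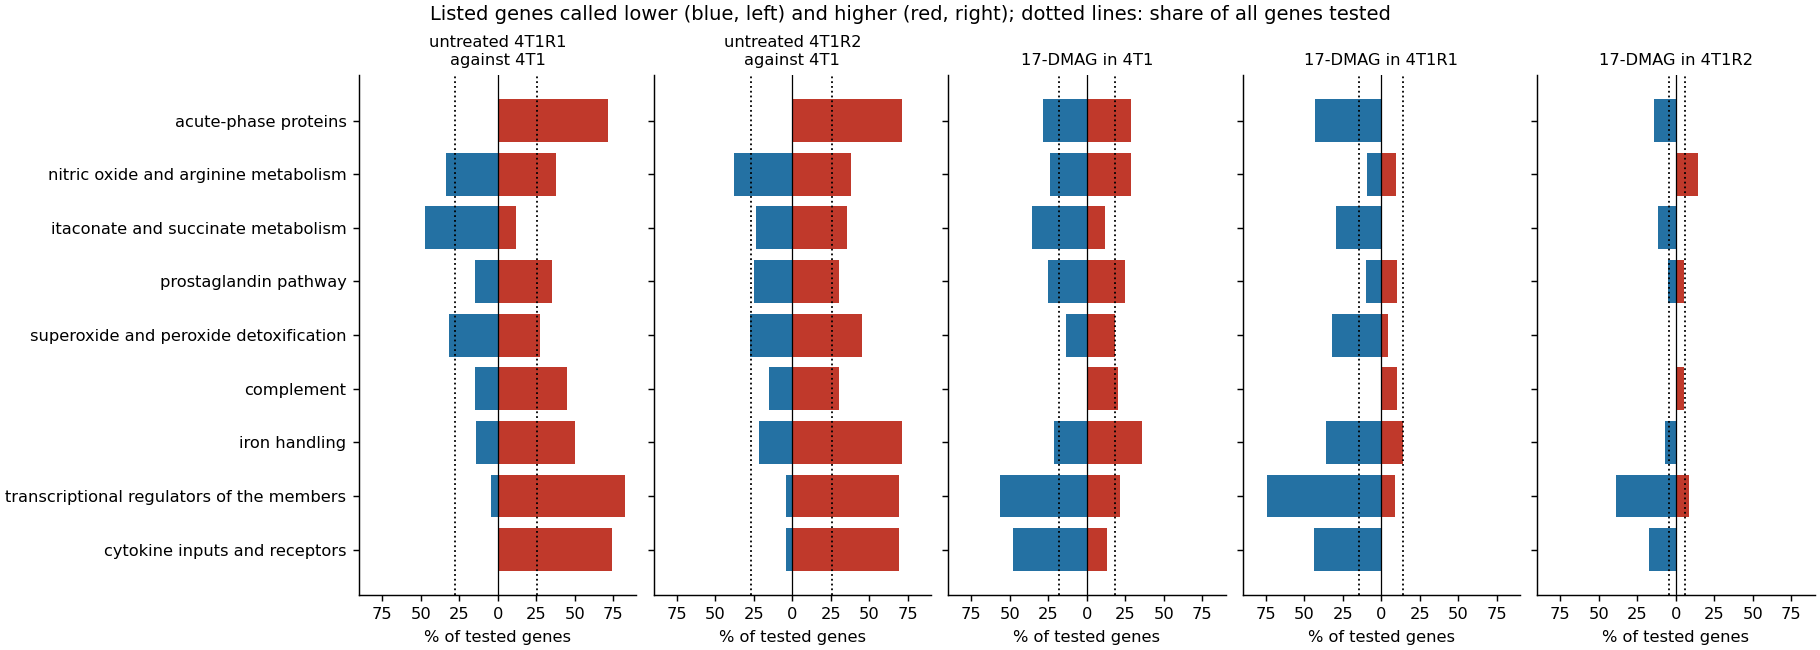
Percent of the tested genes of each list that were called higher (red, to the right) or lower (blue, to the left) at an adjusted p under 0.05, in untreated resistant populations against 4T1 and after 17-DMAG in each population, with dotted lines at the shares of all genes tested. In untreated 4T1R1 the regulator and cytokine lists have the longest bars to the right, with 19 of 23 and 17 of 23 genes higher.

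The genes whose patterns were most like those of the 9 were ranked by Pearson's r of log2 normalized counts over the 17 libraries, as a description, since all libraries share the same large differences between populations. Lcn2 was most like C3 (r = 0.997), and C3 was most like Xdh (r = 0.998) and Bahcc1 (r = 0.998), with Lcn2 next. For Nos2 the nearest were Pou2f2 (r = 0.994), Gbp2 (r = 0.991) and Dock11 (r = 0.990), and for Saa3 Ehf (r = 0.993), Gng2 and Gas7. Irg1 was most like Slpi (r = 0.984), Fmnl2 and Atp2b1, which had 2200, 2989 and 6429 normalized counts in untreated 4T1. Cp was most like Trib2 (r = 0.987), Ptges most like Polr2a (r = 0.992), Ptgs2 most like Sdha (r = 0.972) and Sod2 most like Ipo5 (r = 0.992). Nos2 correlated with Irg1, Lcn2, Saa3 and C3 at r = 0.952, 0.976, 0.983 and 0.983, and with Sod2 and Ptgs2 at r = 0.588 and 0.563.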

How the data were processed

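The deposited file holds raw read counts per gene, made by the authors by removing ribosomal RNA, preparing libraries by a dUTP method, aligning to the mouse genome with STAR and counting with featureCounts (Subread 1.6.2), with bcl2fastq 2.20 also named in the submitters' processing notes. The build is GRCm38. How strand and multiply aligned reads were handled is not given in the sources used here.

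The test was the quasi-likelihood test of edgeR 4.0.16 (R 4.3.3) with filterByExpr, TMM scaling and group means, adjusted by the Benjamini-Hochberg method over 13507 genes with a threshold of 0.05. Replicates 1 and 2 of 17-DMAG-treated 4T1 were averaged, so 17 libraries entered the fit. Their mean chi-square per gene was 1.1, against 2.04 to 2.22 in 17 other replicate pairs. Sampling noise of reads counted singly gives about 1, and it gives more where both mates of a fragment were counted. Whether both replicates came from 1 library was not tested. A fit of all 18 libraries was an alternative. The series description calls the replicates biological.

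The 9 genes and the lists were chosen with earlier results of these data known. From other lists, at most 3 genes per direction and comparison were named, having an adjusted p under 0.05, a group mean of at least 100 normalized counts and no overlap between groups. Positions and lengths are from GENCODE vM21 and promoter sequences from RefSeq (GRCm38.p6). The code was tested on simulated data. Alternatives were RLE scaling, total counts alone, no filter, at least 10 counts in every library, DESeq2 1.42.0, 18 separate libraries, the replicate number as a block, the groups compared only, a 2-fold minimum, other lengths, likeness over 6 group means and each library left out.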

Additional observations from a re-analysis of the deposited data

Results flagged for a closer look

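The 17-DMAG response differed between populations, by the test of the difference itself, for 6 of the 9 genes. Between 4T1R1 and 4T1 the log2 changes differed by 0.29 for Ptgs2, 0.84 for Ptges and 0.29 for Cp, and between 4T1R2 and 4T1 by 0.55 for Ptgs2, 1.16 for Ptges and 0.36 for Cp, each less negative in the resistant population. Between 4T1R2 and 4T1R1 they differed by 0.79 for Nos2, 0.28 for Lcn2, 0.18 for C3 and 0.26 for Ptgs2, each less negative in 4T1R2. The comparisons with 4T1 rest on n = 2 treated 4T1 samples. Groups of 3 libraries were too small to test for a library apart from the others.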

How the results depend on the processing

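Requiring a 2-fold change left 1 gene lower after 17-DMAG in 4T1, 0 in 4T1R1 and 0 in 4T1R2, and 0 genes in each of the 3 comparisons of responses. That stricter test can only keep or lower such counts, but it did not fix them at 0. The estimates for Nos2 in 4T1R1 (-1.02 ± 0.0763) and for Ptges in 4T1R2 against 4T1 (1.16 ± 0.112) were beyond 2-fold and were not called. With each library left out in turn, the genes lower in 4T1R2 numbered 0 to 3, the genes with a higher response in 4T1R2 than in 4T1R1 2 to 4, and those with a higher response in 4T1R2 than in 4T1 3 to 4.

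Scaling by total counts shifted the median of all genes by -0.114 in the 4T1 response and by 0.146 in the comparison of the 4T1R1 and 4T1 responses. It gave 5 genes with a higher response in 4T1R2 than in 4T1 and 1 in 4T1R2 than in 4T1R1, and turned the log2 changes of Sod2 in 4T1 (-0.056) and 4T1R2 (-0.0205) and of Ptgs2 in 4T1R2 (-0.0303), none of which was past the threshold. In 4T1R2, leaving out single libraries gave -0.001235 to 0.046 for Sod2 and -0.01337 to 0.061 for Ptgs2, and the latter also turned without untreated replicate 1 (-0.012). At least 10 counts in every library, which removes Nos2, Irg1 and Saa3, gave 2 genes for 4T1R2 against 4T1R1. The fit of 18 separate libraries gave 5 genes with a higher response in 4T1R2 than in 4T1.

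Replicate numbers did not pair the samples, as deviations of same-numbered libraries correlated at -0.022 to 0.037 and 4 of 9 correlated best with their own number. With the replicate number as a block, fitted on 18 separate libraries, the count for 4T1R2 against 4T1 was 5, as in the 18-library fit without the block and against 3 in the fit of 17, and the call of Lcn2 for 4T1R2 against 4T1R1 was lost. The cause of changes other than those named was not tested. Over all alternatives, 822 of 879 log2 fold changes of the 9 genes kept their direction and their side of the threshold or their value. Depth limits Nos2, Irg1 and Saa3 in 4T1, where at most 8 reads were counted in a library. With the longest transcript as length, 31 of 54 per-length levels moved by more than their SD.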
